A study of Mus musculus with 4 samples.

Results

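Akr1c12, Akr1c13 and Akr1c18 are 3 genes of the aldo-keto reductase 1C subfamily, each measured by 1 probe set, out of 19938 genes that had a probe set with a single gene symbol. They were selected on these arrays' own values, because their signal was much higher in LT-HSC-derived than in ST-HSC-derived cells, so that difference is described here and not tested. The choice used no stated threshold. The samples were mouse haematopoietic cells of C57BL/6 background that had grown as colonies in methylcellulose, a semi-solid medium, with serum and with stem cell factor, IL-3, IL-6 and GM-CSF. They descended either from long-term (LT-HSC) or from short-term (ST-HSC) repopulating stem cells, and each population had received by transduction either CreER, which is Cre recombinase joined to a piece of the oestrogen receptor, or mock. By the series title the cells are a model of conditional MLL-ENL expression. The labels name neither the MLL-ENL allele or vector nor a drug that activates CreER. Each of the 4 combinations was 1 Affymetrix array, so no difference between a pair of arrays has a replicate spread, and pooling of colonies or animals is not stated in the sources used here.

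Aldo-keto reductases use NADPH to reduce carbonyl groups to alcohols. Members of the 1C subfamily act on steroids, prostaglandins and aldehydes, and in rodents they are encoded by a tandem cluster of closely related genes. Akr1c18 encodes the hydroxysteroid dehydrogenase that converts progesterone into a weakly active metabolite, an activity known from the ovary at the end of pregnancy and also described as induced by IL-3 in mouse blood cells. Akr1c12 and Akr1c13 encode closely related dehydrogenases with a broad range of substrates.

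By RefSeq's genes of assembly GRCm38.p6, the cluster on chromosome 13 holds 9 genes with no other protein-coding gene among them, in the order Akr1c14, Akr1c18, Akr1c13, Akr1c19, Akr1c12, Akr1c6, Akr1c20, Akr1c21 and Akr1e1. All 3 genes described here were matched to this table by gene number. They lie close together, with Akr1c19 standing between Akr1c13 and Akr1c12. The sequences just before their starts are shown because these 3 genes were each at least 2-fold higher in LT-HSC-derived cells while Akr1c19, between them, was not. Each line gives the 250 bases before the RefSeq start in GRCm38.p6, 5′ to 3′ on the gene's own strand, with capitals for matches to any of 8 motifs searched on both strands.
Akr1c18, chr13:4150647-4150896, minus strand: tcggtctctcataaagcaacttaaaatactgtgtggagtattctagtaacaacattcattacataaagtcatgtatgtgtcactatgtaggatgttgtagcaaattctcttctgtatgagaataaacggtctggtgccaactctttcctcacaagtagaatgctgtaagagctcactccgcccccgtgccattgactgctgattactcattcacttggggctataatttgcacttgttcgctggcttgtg
Akr1c13, chr13:4190937-4191186, plus strand: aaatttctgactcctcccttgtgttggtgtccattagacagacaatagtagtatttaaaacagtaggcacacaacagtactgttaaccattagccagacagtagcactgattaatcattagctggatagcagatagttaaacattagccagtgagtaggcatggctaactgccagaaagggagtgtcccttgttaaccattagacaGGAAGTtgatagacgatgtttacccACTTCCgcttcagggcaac
Akr1c12, chr13:4279400-4279649, minus strand: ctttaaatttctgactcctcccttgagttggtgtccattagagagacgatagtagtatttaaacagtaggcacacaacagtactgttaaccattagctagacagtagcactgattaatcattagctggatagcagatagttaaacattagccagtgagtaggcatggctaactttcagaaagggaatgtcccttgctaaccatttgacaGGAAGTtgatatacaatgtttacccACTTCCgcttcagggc
Akr1c19, chr13:4233490-4233739, plus strand: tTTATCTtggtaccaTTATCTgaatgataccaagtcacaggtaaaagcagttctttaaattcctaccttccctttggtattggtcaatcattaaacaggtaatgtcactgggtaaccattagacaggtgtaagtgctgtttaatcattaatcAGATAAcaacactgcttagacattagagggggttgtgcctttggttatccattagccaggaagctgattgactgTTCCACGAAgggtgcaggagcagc

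The Akr1c12 and Akr1c13 windows were almost the same sequence. In a pairwise alignment, 235 of 247 aligned positions were identical, or 95.1%, with 1 gap position. Akr1c19 was the next closest, at 59.7% to Akr1c13 and 56.8% to Akr1c12. Akr1c18 was at 48.5% and 51.6%. The other 23 pairs among the 8 cluster genes that had a window, some of which include Akr1c18, ranged from 46.5% to 52.9%. These windows lie before the start, and the transcripts that the probe sets read were not compared. Whether the probe sets of Akr1c12 and Akr1c13 share signal was not tested, since probe sequences were not used here. Their values are thus uncertain as separate measurements.

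The motifs searched were TTCNNNGAA for STAT5, AGATAA and its variant with T as first letter (TGATAA) for GATA factors, the AP-1 motif TGANTCA, the antioxidant response element core TGACNNNGC, the ETS family motif GGAAGT, the RUNX motif TGTGGT and the palindromic E-box motif CACGTG. Among the 3 genes the ETS motif was the only one found, and only in the windows of Akr1c13 and Akr1c12. It occurred at 2 places in Akr1c13, starting 44 and 19 bases before the start, and at the matching places in Akr1c12, 41 and 16 bases before it. In each pair the match nearer to the start lies on the opposite strand. The Akr1c18 window held no match to any motif. Akr1c19 had 3 matches to AGATAA and 1 to the STAT5 motif. The ETS motif was not particular to genes higher in LT-HSC-derived cells. It also occurred in the cluster genes Akr1c6 and Akr1c21, starting 220 and 208 bases before the start, and neither gene reached 2-fold. No match overlapped another. Over all 32851 promoter windows of the same length, the ETS motif was held by 19.7%, the AGATAA form of the GATA motif by 9.99% and the STAT5 motif by 7.02%. These matches describe the letters only.

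Akr1c12 had log2 levels of 6.35 on the ST-HSC mock array, 6.98 on ST-HSC CreER, 9.34 on LT-HSC CreER and 9.93 on LT-HSC mock. Both LT-HSC levels were above both ST-HSC levels. The gene was picked for this contrast, and the share of all genes with that order was not counted. A signal floor was set for each array at the median of its single-symbol probe sets, between 8.07 and 8.13, and both ST-HSC levels stood under it. Akr1c12 was 12.0-fold higher in LT-HSC-derived cells with mock, a log2 difference of 3.58, and 5.16-fold higher with CreER, a difference of 2.37. With the ST-HSC levels raised to the floor, a setting added after the values were seen, these folds came to 3.61 and 2.42, so their size depends on how faint signals are read.

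Akr1c13 gave 7.55 on ST-HSC mock, 8.06 on ST-HSC CreER, 9.60 on LT-HSC CreER and 10.32 on LT-HSC mock. Both LT-HSC levels were again above both ST-HSC levels. It was 6.82-fold higher in LT-HSC-derived cells with mock (log2 difference 2.77) and 2.91-fold higher with CreER (1.54). The ST-HSC mock level was under the floor and the ST-HSC CreER level just under it. Raised to the floor they left folds of 4.75 and 2.89.

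Akr1c18 stood above the floor on all 4 arrays, at 10.72 for ST-HSC CreER, 10.93 for ST-HSC mock, 13.26 on LT-HSC CreER and 13.48 on LT-HSC mock. Here too both LT-HSC levels were above both ST-HSC levels. Akr1c18 was 5.85-fold higher in LT-HSC-derived cells with mock and 5.82-fold higher with CreER, log2 differences of 2.55 and 2.54. Its difference between the populations was thus nearly the same size under both transductions. The difference with mock minus that with CreER was 0.009 for Akr1c18, against 1.21 for Akr1c12 and 1.23 for Akr1c13. The latter rest on ST-HSC levels under the floor, and with those raised to it they came to 0.58 and 0.72. With 1 array per group, neither the order of neighbouring levels nor this contrast between the genes can be set against a replicate spread.

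**Figure D1:**
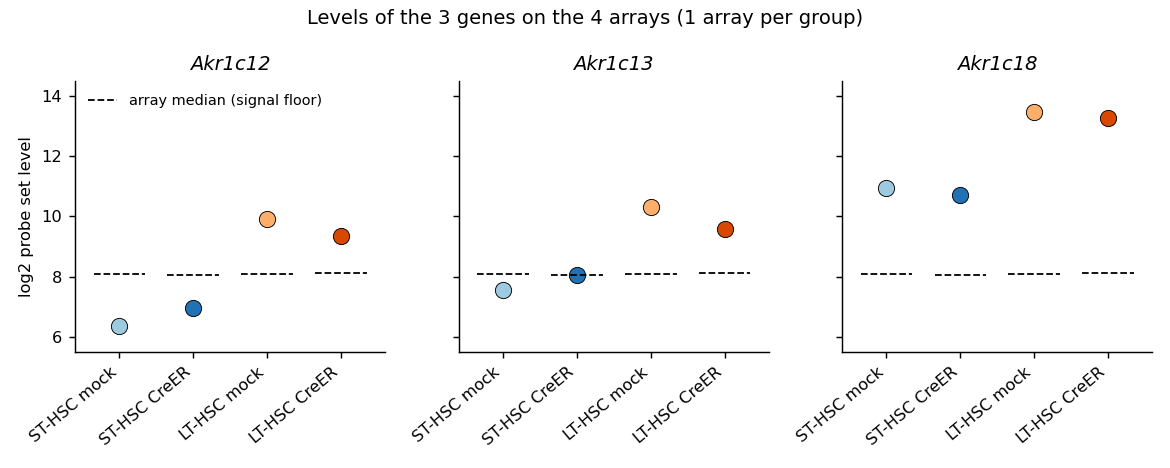
Log2 probe set level of each gene on the 4 arrays, 1 point per array, with a dashed line at that array's signal floor. The LT-HSC points lie above the ST-HSC points for each gene, and Akr1c12 and Akr1c13 are under the floor on both ST-HSC arrays, between 6.35 and 8.06.

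All 3 genes were at least 2-fold higher in LT-HSC-derived cells with mock, where 2.72% of the 10208 genes past the floor on the higher array were, and with CreER, where 1.39% of 10189 were. Genes at least 2-fold lower made up 0.402% with mock and 0.55% with CreER. Because the 3 genes were picked for this contrast, nothing is read from those counts. Ranks from the highest difference were taken with every level under the floor raised to it, a setting added after the values were seen. Akr1c18 was then at rank 18, Akr1c13 at rank 37 and Akr1c12 at rank 70 with mock, and at ranks 5, 43 and 68 with CreER. Without that setting Akr1c18 was at rank 39, Akr1c13 at rank 28 and Akr1c12 at rank 7 with mock, and at ranks 5, 70 and 8 with CreER. The order of the 3 genes thus depended on the setting. The comparisons with mock and with CreER share no array. Genes at least 2-fold higher in both numbered 122 of the 9991 past the floor in both, or 1.22%. In bulk samples such as these, a difference in the number of cells that carry a transcript and a difference in transcript per cell cannot be told apart.

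**Figure D2:**
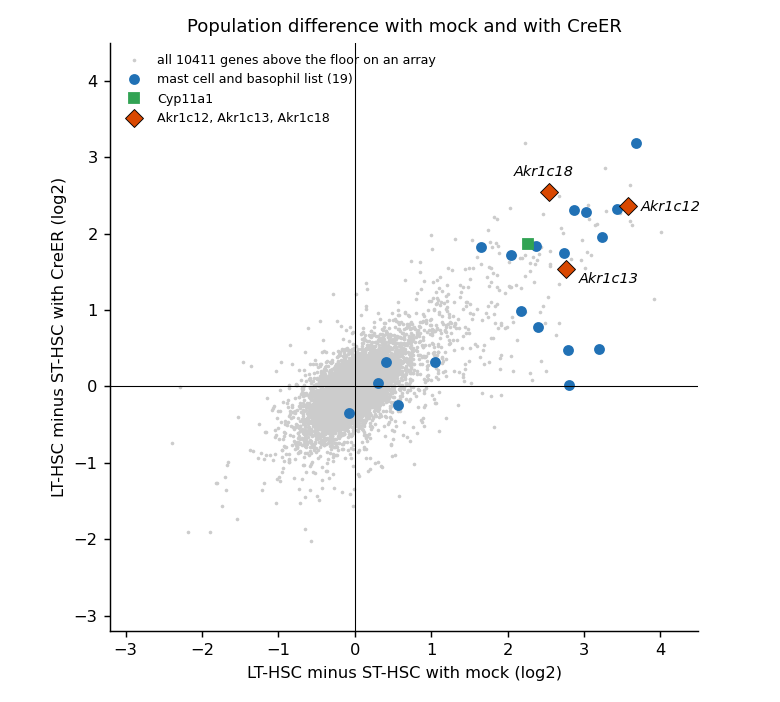
LT-HSC minus ST-HSC log2 difference with mock (horizontal) and with CreER (vertical), 1 point per gene for the 10411 genes above the floor on at least 1 array. Akr1c12, Akr1c13 and Akr1c18 lie at the upper right, between 2.55 and 3.58 with mock and between 1.54 and 2.54 with CreER, among genes of the mast cell and basophil list.

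No other gene of the cluster reached 2-fold between the populations. Of the 7 other Akr1c cluster and related genes listed, all were measured and only Akr1e1, which encodes a reductase of a glucose-derived sugar, was above the floor. Over all genes past the floor, 2.72% were at least 2-fold higher with mock and 1.39% with CreER, so nothing is read from this count. Akr1e1 had levels of 9.27 on ST-HSC mock, 8.91 on ST-HSC CreER, 9.11 with LT-HSC mock and 8.89 for LT-HSC CreER. Its LT-HSC minus ST-HSC differences were -0.16 with mock and -0.02 with CreER. Akr1c19, between Akr1c13 and Akr1c12, lay between 4.56 and 5.05 on the 4 arrays and differed by 0.08 with mock and 0.50 with CreER. Akr1c14, next to Akr1c18, lay between 4.91 and 5.17 and differed by -0.18 and 0.25. Akr1c6 (0.05 and 0.28), Akr1c20 (0.13 and 0.15) and Akr1c21 (0.12 and -0.17) stood under the floor on every array. So did Akr1cl, which lies on another chromosome, with -0.28 and 0.00. At such faint signals a difference may be compressed, so these values do not show that the genes were equal between the populations. The median over the 7 genes was 0.05 with mock and 0.15 with CreER, against -0.03 and 0.04 over all genes.

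**Figure D3:**
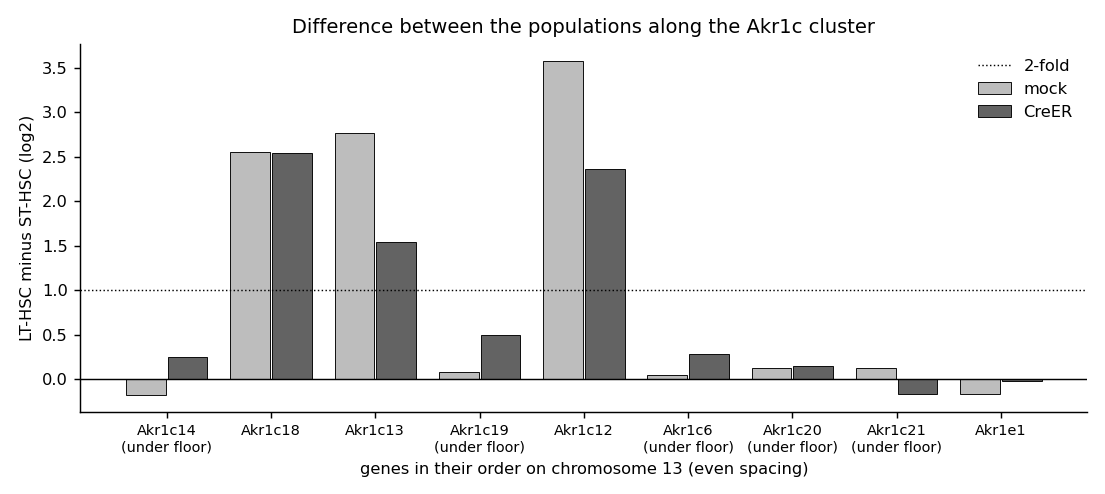
LT-HSC minus ST-HSC log2 difference with mock and with CreER for the 9 genes of the chromosome 13 cluster in their RefSeq order, evenly spaced, 1 bar per pair of arrays. Bars of Akr1c18, Akr1c13 and Akr1c12 pass the dotted 2-fold line, whereas Akr1c19 between them reaches 0.50 and the cluster's other genes stay at 0.28 or lower.

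No more distant aldo-keto reductase reached 2-fold either. Of 8 measured, 5 passed the floor with mock and with CreER, none of them 2-fold higher or lower. Over all genes past the floor, 2.72% were at least 2-fold higher and 0.402% lower with mock. With CreER these shares were 1.39% and 0.55%. At such shares nothing is read from a count of 0 among 5 genes. Akr1a1, a general aldehyde reductase, had levels between 13.10 and 13.44 and LT-HSC minus ST-HSC differences of -0.16 and -0.23. Akr1b10 and Akr1b8, reductases related to the enzyme of the sorbitol pathway, differed by -0.47 and -0.29, and by -0.05 and -0.46. Akr7a5 differed by -0.18 and 0.03, and Kcnab2, a potassium channel subunit with an aldo-keto reductase fold, by -0.01 and 0.06. Akr1d1, Kcnab1 and Kcnab3 stood under the floor on all arrays, with differences between -0.16 and 0.16. The median over the 5 genes past the floor was -0.16 with mock and -0.23 with CreER, beside -0.03 and -0.02 over all genes past it. Akr1b3 and Akr1b7 were not analysed here.

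Among enzymes that make or convert steroids and retinoids, 1 of 15 past the floor was at least 2-fold higher in LT-HSC-derived cells with mock. It was Cyp11a1. Over all genes past the floor that share was 2.72%. Cyp11a1 encodes the side-chain cleavage enzyme that starts steroid synthesis from cholesterol, upstream of the progesterone that the Akr1c18 enzyme consumes. Its levels were 10.33 on ST-HSC mock, 10.49 on ST-HSC CreER, 12.36 on LT-HSC CreER and 12.59 on LT-HSC mock. Like Akr1c18 it was above the floor throughout, with differences of 2.26 with mock and 1.87 with CreER. The list's medians over genes past the floor were -0.01 and 0.01. With CreER, Cyp11a1 was again the one gene higher, and 1 gene, the retinol dehydrogenase gene Dhrs9, was lower at -1.06. Dhrs9 was named after its values were seen. Other examples were Dhrs3, a retinaldehyde reductase gene, at -0.42 and -0.54, Hsd17b4 of peroxisomal fatty acid breakdown at -0.30 and -0.41, and Hsd17b1, which activates oestrogens, at 0.40 and 0.39. Star, which brings cholesterol to the side-chain cleavage enzyme, and Hsd3b1 and Hsd3b2, of the step that yields progesterone, were looked up after the values were seen. They stood under the floor on all 4 arrays, Star between 7.41 and 7.53, Hsd3b1 between 4.85 and 5.23 and Hsd3b2 between 5.58 and 5.81. Pgr, the progesterone receptor gene, was also under it, between 6.63 and 6.85.

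Of 13 enzymes past the floor that remove carbonyls and aldehydes by other routes, 0 were 2-fold higher or lower in LT-HSC-derived cells with either transduction, with medians of -0.02 and -0.13. Ptgr1, which inactivates prostaglandins and leukotrienes, differed by -0.88 with mock and -0.27 with CreER. Adh5, the formaldehyde-clearing alcohol dehydrogenase, differed by 0.51 and 0.11, Glo1 by -0.31 and -0.13, and Aldh3b1 by -0.30 and -0.44. Targets of NRF2, the oxidative stress factor that is known to regulate aldo-keto reductase genes, gave 1 of 23 at least 2-fold higher with mock and 0 with CreER, with medians of -0.05 and -0.05. The 1 NRF2 target was Osgin1, an oxidative stress-induced growth inhibitor, 2.01-fold higher with mock and at a log2 difference of 0.08 with CreER. Over all genes past the floor, 2.72% were at least 2-fold higher with mock and 1.39% with CreER. Nqo1, a quinone reductase and a standard NRF2 target, was at 0.95 and 0.08. Gclc, of glutathione synthesis, was at 0.47 and 0.51, and Ephx1, an epoxide hydrolase gene, at -0.23 and -0.80.

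Genes of the response to IL-3 and STAT5 (IL-3 was in the colony medium) were also counted. With mock 6 of 25 past the floor were at least 2-fold higher in LT-HSC-derived cells and with CreER 3 of 25 were. None was 2-fold lower in either. Over all genes past the floor, 2.72% were at least 2-fold higher with mock and 1.39% with CreER. The medians were 0.33 and 0.26, beside -0.03 and -0.02 over all genes past the floor. Osm, a cytokine gene switched on by STAT5, differed by 1.29 and 0.92, and the survival kinase gene Pim2 by 1.11 and 0.98. The activation marker gene Cd69 differed by 1.07 and 1.15, and the immediate early gene Egr1 by 1.02 and 1.37. The IL-3 receptor alpha chain gene Il3ra, looked up after the values were seen, differed by 0.76 and 0.66. Not all genes of the list kept their difference. Cish and Socs1, also looked up after the values were seen, differed by 1.10 and 1.06 with mock but by 0.18 and 0.13 with CreER. In the list 6 of 25 genes were below 0 with mock and 7 of 25 with CreER.

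Markers of some other cell types, but not of all, differed between the populations in the direction of the 3 genes. All 12 measured neutrophil markers and all 12 monocyte and macrophage markers were above the floor on at least 1 array, whereas 9 of 10 lymphoid and 4 of 8 fibroblast and stromal markers were under it on all arrays. Of the neutrophil markers, 4 of 12 were above 0 in LT-HSC minus ST-HSC with mock and 0 of 12 with CreER, with medians of -0.14 and -0.34. Of the monocyte and macrophage markers, 5 of 12 and 3 of 12 were above 0, with medians of -0.04 and -0.40. Over all genes past the floor the medians were -0.03 and -0.02, and the share above 0 was not counted. Over the 24 measured mast cell and basophil genes the mean log2 level was 8.28 on ST-HSC mock, 8.65 on ST-HSC CreER, 9.54 on LT-HSC CreER and 10.01 on LT-HSC mock. Of 19 genes past the floor, 15 were at least 2-fold higher in LT-HSC-derived cells with mock and 9 with CreER. Over all genes past the floor these shares were 2.72% and 1.39%. The list's medians were 2.39 and 0.99. Examples were Il6 (3.68 and 3.18), the receptor gene Cd200r3 (3.43 and 2.33), the transcription factor gene Gata2 (3.02 and 2.28) and the vesicular monoamine transporter gene Slc18a2 (3.23 and 1.95). The mast cell proteases Mcpt1, Mcpt2, Mcpt4, Cma1 and Tpsab1 stood under the floor on all arrays. Other mast cell proteases, named after their values were seen, did not. Cpa3, the mast cell carboxypeptidase gene, was above it on all 4 arrays, at 11.15 on ST-HSC mock, 12.31 on ST-HSC CreER, 13.09 on LT-HSC CreER and 13.54 on LT-HSC mock, and was 5.25-fold higher in LT-HSC-derived cells with mock and 1.71-fold higher with CreER. The tryptase gene Tpsb2 was above the floor on both LT-HSC arrays, at 8.73 with mock and 8.36 with CreER. It was 2.06-fold higher than on ST-HSC with mock and 1.25-fold higher with CreER. The basophil protease genes Mcpt8 and Prss34, also named after their values were seen, were above the floor on all 4 arrays. Mcpt8 differed by 2.05 with mock and 1.71 with CreER, and Prss34 by 1.65 and 1.82. Of the megakaryocyte and platelet markers, 6 of 8 were at least 2-fold higher with mock and 6 of 8 with CreER. The list's mean was 8.99 and 9.27 on the ST-HSC mock and CreER arrays and 10.59 and 10.63 on the LT-HSC ones. Of the eosinophil markers, 4 of 6 past the floor were at least 2-fold higher with mock and 0 of 5 with CreER, and the list's mean was 8.74 and 9.42 on the ST-HSC mock and CreER arrays and 10.09 and 9.90 on the LT-HSC ones. Of the stem and progenitor markers, 3 of 7 past the floor were at least 2-fold higher with mock and 3 of 7 with CreER, with medians of 0.40 and 0.32. For dendritic cell markers the counts were 1 of 6 and 0 of 6, with medians of 0.10 and -0.48. For erythroid markers they were 1 of 2 and 0 of 2. None in these 3 lists was 2-fold lower. The part of these cell types in the Akr1c differences was not tested.

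CreER against mock is a contrast the choice of the genes did not use, although the arrays are the same ones. In LT-HSC-derived cells Akr1c12 differed by -0.59, Akr1c13 by -0.72 and Akr1c18 by -0.22, so each was lower on the CreER array. None of the 3 reached 2-fold, where 0.875% of 10172 genes did. In ST-HSC-derived cells Akr1c12 differed by 0.63 and Akr1c13 by 0.51, both at levels under the floor on both arrays, and Akr1c18 by -0.21. None reached 2-fold there either, where 0.518% of 10047 genes did. The LT-HSC mock and ST-HSC mock arrays enter both these differences and those between the populations with mock, so both sets of differences do not count as independent.

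As measured, Akr1c12 and Akr1c13 had opposite signs in the populations and Akr1c18 had the same sign in both. An opposite pattern in this direction, below 0 for LT-HSC and above 0 for ST-HSC, was found for 2086 of 10411 genes, or 20.0%. A gap between the CreER differences of at least 1 on the log2 scale in this direction, as for Akr1c12 (-1.21) and Akr1c13 (-1.23), was found for 123, or 1.18%. Both genes cleared the floor on the LT-HSC arrays alone. With the other levels raised to the floor their gaps were -0.58 and -0.72, short of that size, and their ST-HSC differences were -0.006 each, so the opposite signs rest on signals under the floor. In the mast cell and basophil list 17 of 19 genes past the floor were below 0 with CreER in LT-HSC-derived cells, with a median of -0.61, and 11 of 16 were above 0 in ST-HSC-derived cells, with a median of 0.35. The part of that list in the Akr1c values was not tested.

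**Figure D4:**
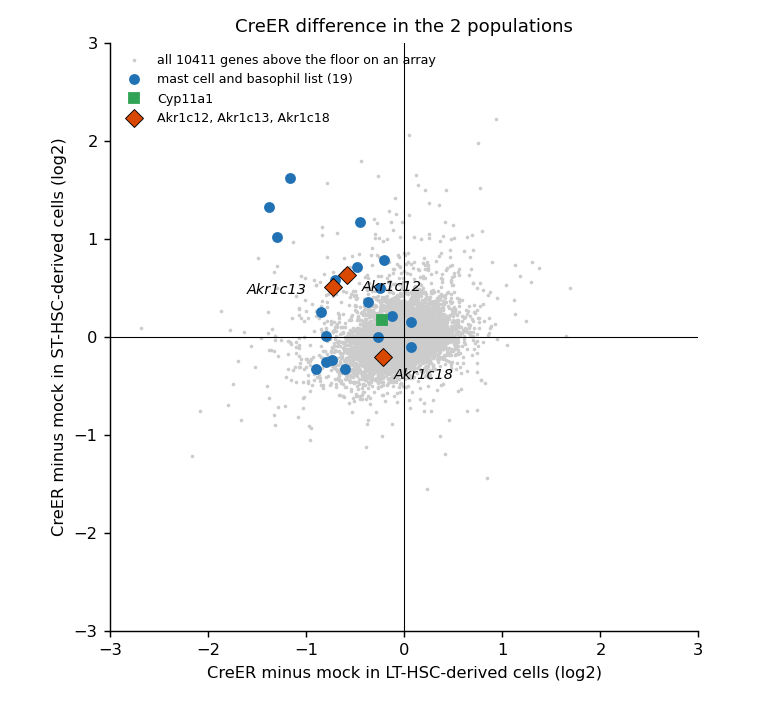
CreER minus mock log2 difference in LT-HSC-derived (horizontal) and ST-HSC-derived cells (vertical), 1 point per gene for the 10411 genes above the floor on at least 1 array. Akr1c12 (-0.59 and 0.63) and Akr1c13 (-0.72 and 0.51) lie at the upper left, and Akr1c18 (-0.22 and -0.21) lies near the centre.

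CreER was tested against mock with an additive limma model, which had population as its other term and used all 4 arrays and 10411 genes. In this fit Akr1c18 differed by -0.21 ± 0.09 (SE), with an unadjusted p of 0.0641 and a Benjamini-Hochberg adjusted p of 0.518, and it was lower on the CreER array in both populations. Akr1c12 differed by 0.02 ± 0.28 (SE, limma adjusted p = 0.988) and Akr1c13 by -0.11 ± 0.28 (SE, limma adjusted p = 0.929), averages of differences of opposite sign. None of the 3 passed an adjusted p of 0.05, and neither did any other gene (0.0% of 10411), while 1048 (10.1%) had an unadjusted limma p under 0.05. The fit has 1 residual degree of freedom per gene. It comes from the gap between a gene's CreER differences in the populations, -0.009 for Akr1c18, -1.21 for Akr1c12 and -1.23 for Akr1c13. The SE joins that gap to a spread that limma pools over all fitted genes, with 4.27 prior degrees of freedom. It is thus no measurement error of repeated arrays. Nothing in the labels says that the arrays stand for separate animals. These p-values therefore measure no spread between animals or between repeated arrays of a group.

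Profiles over the 4 arrays were compared by the root mean square distance between log2 levels, each gene first centred on its own mean, among genes above the floor on at least 1 array. The 3 genes were 0.37 to 0.41 apart from one another, and other genes lay closer to each of them. Nearest to Akr1c12 were Cth, which makes cysteine (distance 0.12), the plasminogen activator inhibitor gene Serpinb2 (0.14), Cd200r3 (0.17), Pcbd1, a dehydratase that recycles the cofactor tetrahydrobiopterin (0.17), and Tespa1, a lymphocyte signalling gene (0.19). Nearest to Akr1c13 were the cation exchanger gene Slc24a3 (0.09), the receptor gene Gpr174 (0.09), the vesicle traffic gene Rab38 (0.12), the glycerol and water channel gene Aqp9 (0.13) and the adaptor gene Lat (0.14). Nearest to Akr1c18 were the kinase gene Prkcq (0.18), the adhesion receptor gene Cd226 (0.20), the chemokine gene Cxcl2 (0.21), Tespa1 (0.24) and Perp, a cell junction gene (0.24). To the mean profile of the 3, Tespa1 (0.05), Pcbd1 (0.07), Prkcq (0.10), Slc18a2 (0.12) and Perp (0.12) were nearest. Tespa1, for example, had 6.86 on ST-HSC mock, 7.26 on ST-HSC CreER, 9.45 on LT-HSC CreER and 9.93 on LT-HSC mock. The distances from Akr1c12 and Akr1c13 include ST-HSC levels under the floor. All of them are descriptions over 4 arrays, which all the genes share.

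**Figure D5:**
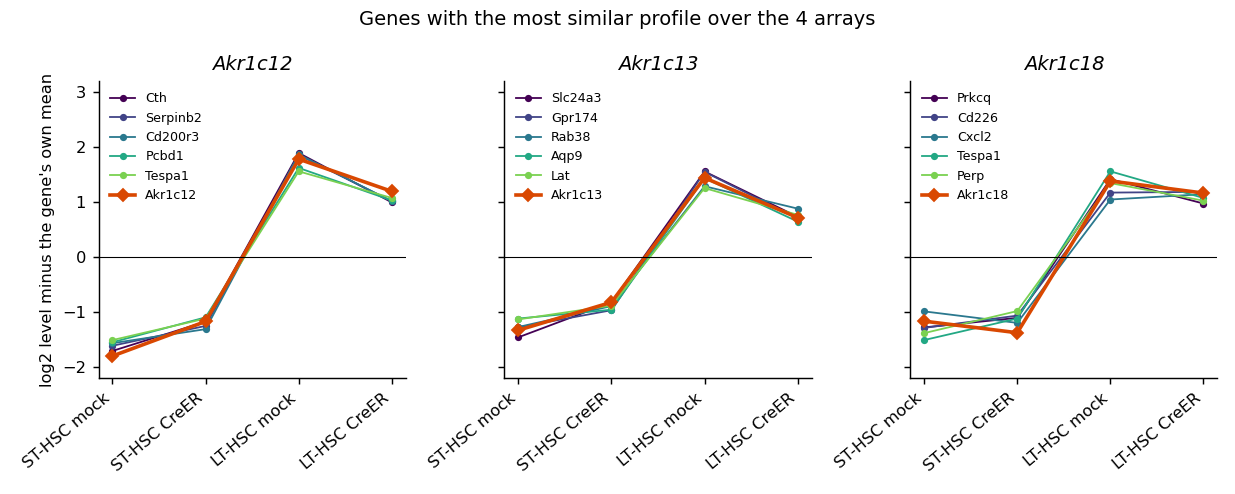
Log2 level on each array minus the gene's own mean over the 4 arrays, for Akr1c12, Akr1c13 and Akr1c18 (thick lines) and the 5 genes nearest to each, with lines joining the arrays of 1 gene. Distances run from 0.12 to 0.19 for Akr1c12, from 0.09 to 0.14 for Akr1c13 and from 0.18 to 0.24 for Akr1c18.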

How the data were processed

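The deposited values are log2 levels per probe set for 4 arrays, a unit read from their range and quartiles. Per the submitters' processing notes they come from Affymetrix Expression Console, and its version, summarisation method and way of normalizing are not stated in the sources used here. RNA was amplified and biotin-labelled, per the labels' protocols. Values were used as deposited. Of 35556 probe sets, 21789 had 1 gene symbol in the platform annotation and 1621 several, and only the former were named. Where a gene had several probe sets, the one with the highest mean stood for it.

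A difference is counted at 2-fold with the higher array above its median (the signal floor). The fit used limma 3.58.1 in R 4.3.3 (lmFit, eBayes, Benjamini-Hochberg at 0.05; 4.27 prior degrees of freedom) and was tested on simulated data. Promoter windows come from RefSeq (GRCm38.p6) and were aligned with Biopython 1.88 (match 2, mismatch -1, gap opening -5, extension -1, free ends). Which genome build the array's annotation used is not stated in the sources used here.

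The genes and lists were chosen with earlier results of these data known. Named are the 3 genes, all listed aldo-keto reductases and the 5 nearest profiles. Of each other list, up to 4 genes past the floor with the largest mean population difference were chosen. Not every such gene is printed for the cell type lists. Exceptions are marked. Alternatives were other normalizations, floors, thresholds, probe set rules and limma settings. A difference counts as moved when it shifts by 0.2 or more.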

Additional observations from a re-analysis of the deposited data

Results flagged for a closer look

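As measured, the CreER difference had opposite signs in the populations for Akr1c12 and Akr1c13 and for 9 of the genes named above. In each the gap between the populations was at least 1 on the log2 scale. With 1 array per group this difference was not tested, and the same 4 values also give the change in the population difference between mock and CreER. The CreER minus mock difference in LT-HSC-derived cells minus that in ST-HSC-derived cells was -1.21 for Akr1c12 and -1.23 for Akr1c13. Their ST-HSC difference lies between levels under the signal floor, and with those levels raised to the floor, a setting added after the values were seen, the gaps were -0.58 and -0.72 and the signs were no longer opposite. As measured, it was -1.11 for Cd200r3, -1.28 for Slc18a2, -1.04 for Pcbd1, -1.43 for Cth, -1.20 for Serpinb2, -1.46 for Slc24a3, -1.16 for Gpr174, -1.42 for Dhrs9 and -1.62 for Cpa3. Cd200r3, Pcbd1, Cth, Slc24a3 and Gpr174 were under the floor on both ST-HSC arrays, and Gpr174 also on LT-HSC CreER. Slc18a2 and Serpinb2 were under it on ST-HSC mock. Gaps with levels raised to the floor are not given for these 7 genes. Dhrs9 and Cpa3 were above the floor on all 4 arrays and were named after their values were seen. The other 7 were named for a profile close to the 3 genes or for their population difference. Their sharing of the pattern is thus no separate evidence of it. Listed markers of other cell types had it too, among them the eosinophil genes Rnase2a (-2.78), Prg2 (-1.52) and Prg3 (-1.20). So did the neutrophil genes Retnlg (-2.35) and Cxcr2 (-1.91). The monocyte gene F13a1 had opposite signs with a gap of 1.61 in the other direction. Rnase2a was above the floor on LT-HSC mock alone.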

How the results depend on the processing

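Under quantile normalization, cyclic loess normalization and centring of each array on its median, the 12 log2 differences of the 3 genes kept their signs and moved by at most 0.07. Each gene had 1 probe set, so averaging probe sets changed none of them. The differences between the populations ranged from 3.55 to 3.61 with mock and from 2.30 to 2.40 with CreER for Akr1c12, from 2.74 to 2.80 and from 1.47 to 1.57 for Akr1c13, and from 2.51 to 2.55 and from 2.47 to 2.55 for Akr1c18. With the signal floor at the 75th percentile, 1 of the 3 genes was counted as at least 2-fold higher in LT-HSC-derived cells with CreER, since fewer genes clear that floor. With a 1.5-fold threshold, 2 of the 3 were counted as changed by CreER in LT-HSC-derived cells. With ST-HSC levels under the floor raised to it, chosen after seeing the data, the Akr1c12 differences were 1.85 with mock and 1.27 with CreER and the Akr1c13 difference with mock was 2.25, and the gaps between their CreER differences moved from -1.21 and -1.23 to -0.58 and -0.72. With the floor at the 75th percentile, 2 of the 3 were counted as at least 2-fold higher with mock. With a 3-fold threshold, 2 of the 3 were counted as higher with CreER. The other counts did not change under the alternatives run. No gene passed limma's adjusted p for CreER in any of them, with a threshold of 0.1 included. The limma adjusted p of Akr1c18 ranged from 0.461 to 0.652 over these settings. The labels give no replicate numbers, so no replicate block was fitted, and the limma model's population term already compares CreER with mock within each population. The number of arrays and faint ST-HSC signals of Akr1c12 and Akr1c13 limit these results.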
